A study of Mus musculus with 18 samples.

Results

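The kinesin motor mRNAs were taken as the transcripts whose gene symbol is Kif followed by a number and at most one letter from a to c, or Klc1 to Klc4. On this array 87 probe sets, each assigned to 1 gene, met that rule and stood for 40 genes, out of 17097 genes with such probe sets. By their textbook roles the 40 genes comprised 15 heavy chains of transport motors, 3 light chains, 12 motors of cell division, the depolymerase Kif2a and 9 motors of cilia, signalling or less settled function. RNA came from cortex and striatum, dissected together, of mice aged 6 weeks. The groups were 3 mice carrying the TgCPEB4∆4 transgene and 3 control mice, and each mouse gave 3 RNA preparations, so that 18 arrays were measured. The preparations were ELUTED, the RNA that left a poly(U) column at 90% formamide and is enriched for long poly(A) tails, WASH, the RNA that left at 25% formamide and is enriched for short tails, and INPUT, the total RNA. The sources used here do not state the promoter that drives the transgene, the strain or sex of the mice, or what genotype the control label stands for.

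Kinesins are motor proteins that walk along microtubules and use ATP to do so. In neurons a handful of them carry vesicles, mitochondria and RNA granules from the cell body into axons and dendrites, whereas others build and move the spindle of dividing cells and are mostly silent in neurons. CPEB4, the protein altered by the transgene, recognises cytoplasmic polyadenylation elements near the ends of mRNAs and alters how long their poly(A) tails are, and a longer cytoplasmic tail is generally linked to more translation.

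The deposited values are log2 expression, and all values below are on that scale. The tail ratio is log2 ELUTED minus log2 WASH within a mouse: it is positive where a transcript took a larger share of the long-tail fraction and negative where it took a larger share of the short-tail fraction. A probe set was tested where its mean over the 18 arrays exceeded the 40th percentile of all probe sets, a log2 value of 5.95, and passed where its limma p, adjusted by Benjamini-Hochberg across the 27022 tested probe sets, was under 0.05. Each gene was represented by its probe set with the highest mean, and further probe sets are named by their identifiers.

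Array medians lay between 6.42 and 6.59. The ELUTED array of control mouse 1 stood apart, because its highest nonspecific control probe set read 7.30, against 5.53 and 6.11 on the ELUTED arrays of the other control mice and 5.64 to 6.29 on those of transgenic mice. Its tail ratios had an SD over all probe sets of 1.19, against 0.39 to 0.86 in the other mice. Many called values and some leading genotype differences are therefore given with and without it, and values given once can have moved as well. Of 8 neuronal markers, 8 exceeded the highest nonspecific control on all arrays. The summed level of 5 striatal markers in INPUT was lower in transgenic mice (12.05 to 12.14) than in control mice (12.31 to 12.37), with no overlap. That of 5 meningeal markers ran from 10.13 to 10.47 in transgenic and from 9.77 to 9.95 in control mice, and that of 4 endothelial markers from 10.63 to 10.81 in transgenic and from 10.31 to 10.59 in control mice, again with no overlap. Astrocyte markers ran from 13.30 to 14.07 in transgenic and from 13.27 to 13.32 in control mice, and microglial ones from 11.29 to 12.22 and from 11.24 to 11.35. The part of these differences in the results below was not tested.

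In total RNA of this tissue most transport motors were above background and most motors of cell division were not. A probe set was called detected on an array where it exceeded the highest nonspecific control of that array, which read 7.24 to 7.52 in INPUT arrays of transgenic mice and 7.07 to 7.52 in those of control mice. Of 45 probe sets for transport heavy chains, 25 were detected on all 18 arrays and 3 on none. These 25 stood for 12 of the 15 heavy-chain genes. Of the 6 light-chain probe sets, 5 were detected on all 18 arrays, and they covered 3 of 3 light-chain genes. Among 17 mitotic probe sets, by contrast, 1, for Kif20a, was detected on all 18 arrays and 10 on none, and 16 of the 17 were detected on no INPUT array. Motors of cilia and signalling were similar, with 0 of 14 probe sets detected on all 18 arrays and 12 of 14 on no INPUT array. Among markers of dividing cells, 0 of 20 were detected on all 6 INPUT arrays and 18 of 20, Mki67 and Top2a among them, on none. The nonspecific control was lower in the fractions, and there 2 of 20 markers were detected on all 6 ELUTED arrays and 3 on none, and 8 on all 6 WASH arrays and 5 on none. Kif22 and Kif2c were likewise detected on 6 of 6 WASH arrays and on 0 of 6 INPUT arrays. In bulk tissue, fewer cells of a type and less RNA per cell cannot be told apart.

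**Figure D1:**
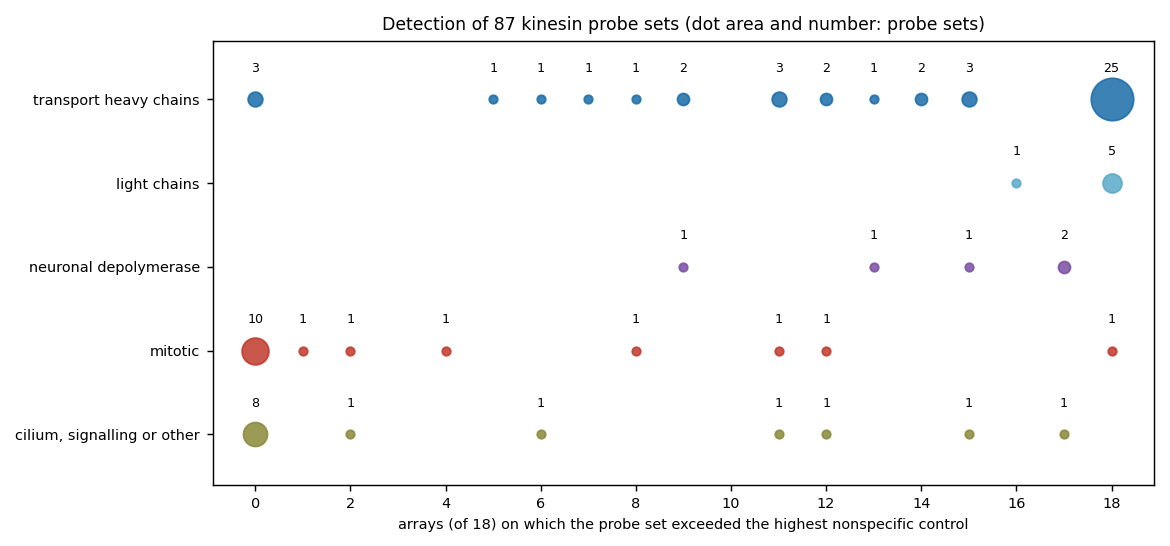
Number of arrays, of 18, on which each of the 87 kinesin probe sets exceeded the highest nonspecific control of the array, by role; dot area and the number above each dot give how many probe sets share a position. Of 45 transport heavy-chain probe sets 25 sit at 18 arrays, and of 17 mitotic probe sets 10 sit at 0.

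After the filter, 58 probe sets for 26 genes were tested, and 29 probe sets, including every one for 14 genes, were not. The 14 untested genes were Kif16b, an endosomal motor, the mitotic Kif11, Kif14, Kif15, Kif18a, Kif18b, Kif20b, Kif23 and Kif2b, and Kif12, Kif27, Kif28, Kif6 and Kif7. Kif11, the spindle motor known as Eg5, is also expressed in neurons. Its brighter probe set averaged 5.51 over the 18 arrays and was above control on 2 of them, neither an INPUT array. In INPUT that probe set read 5.48, 5.43 and 5.32 in transgenic mice, against 5.52, 5.56 and 5.60 in control mice, and its tail ratios were 0.13, 0.012 and -0.013 in transgenic mice, against 0.17, -0.20 and -0.082 in control mice. The INPUT values were lower in all transgenic mice, but below the nonspecific control throughout. The 29 untested probe sets read between 3.89 and 6.99 on any array, 21 of them were detected nowhere, and 29 of 29 were detected on no INPUT array. Just below the filter were a further Kif13a probe set with a mean of 5.91 and one of Kif1c with 5.90, and just above it were Kif4 with 6.01 and one of Kif5b with 6.02. Of the 58 tested probe sets, 2 had a mean under the filter value in one fraction, that of Kif4 in WASH and 1 of Kif5b in ELUTED. Of these, 1 passed in transgenic mice and 2 in control mice, and the counts below include them. Klc2 has no probe set assigned to it alone and was not analysed here.

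Kinesin mRNAs were split between the fractions. In transgenic mice 10 of the 58 probe sets passed, 4 toward long and 6 toward short tails, where 12.7% and 19.1% of all probe sets did. That is a share of 17.2% where 31.8% of all probe sets tested passed. In control mice 30 of 58 passed, 14 toward long and 16 toward short tails, where 27.6% and 35.4% of all probe sets did, a share of 51.7% against 63% of all probe sets. The balance of the calls moved with the scaling and the filter, among kinesins and over all probe sets. Of all calls above, 40% in transgenic and 43.8% in control mice were toward long tails. With the arrays quantile-normalized again 5 passed toward long and 3 toward short tails in transgenic mice, and 20 and 10 in control mice. Over all probe sets 18.5% and 58.2% then passed, with 55.5% and 53.2% of the calls toward long tails. With no filter, 7 and 6 of 87 passed in transgenic mice, and 27 and 17 of 87 in control mice. Over all probe sets 24.9% and 54.9% then passed, with 47.5% and 56.5% of the calls toward long tails. The median tail ratio of the kinesin probe sets was -0.06 in transgenic and -0.01 in control mice, beside -0.11 and -0.07 for all probe sets tested. Counted by representative probe set, 4 of 26 genes passed in transgenic mice, 3 toward long and 1 toward short tails, where 27% of all genes passed, 6.5% toward long and 20.5% toward short tails. In control mice 12 of 26 genes passed, 5 toward long and 7 toward short tails, where 60.4% of all genes did, 20.5% toward long and 39.9% toward short tails. All 3 mice of a genotype shared one sign in 40 of 58 probe sets in each genotype. Signs were positive in 19 and negative in 21 in transgenic mice, and positive in 21 and negative in 19 in control mice. Of all probe sets, 29.8% were positive and 45.3% negative in 3 of 3 transgenic mice, and 36.2% and 42.7% in 3 of 3 control mice.

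These counts depended on single mice. Without control mouse 1, 20 of the 30 control calls were kept, where 52.2% of all probe sets passed. With control mouse 3 left out, 20 of the 30 were kept and 22 kinesin probe sets passed in all, where 48.5% of all probe sets did. Those lost without control mouse 3 were probe sets of Kif3a, Kif3b, Kif5a, Kif13b, Kif22, Kif26a, Klc1 and Klc4. In transgenic mice no call was kept without transgenic mouse 1 or without transgenic mouse 2, and then 0 of the 27022 probe sets passed in those mice, with 7404 and 6880 at an unadjusted p under 0.05. Without control mouse 1, whose spread enters the shared error, 20 kinesin probe sets passed in transgenic mice, where 50.2% of all probe sets did. Detection limited some calls as well. In 9 of the 30 control and 2 of the 10 transgenic calls, the dimmer fraction exceeded the nonspecific control on only 1 or 2 of 3 arrays. The sizes of those ratios are uncertain. In control mice they were of Kif1c, Kif2a, Kif3b, Kif5b, Kif13a and Kif21a, each toward short tails.

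**Figure D2:**
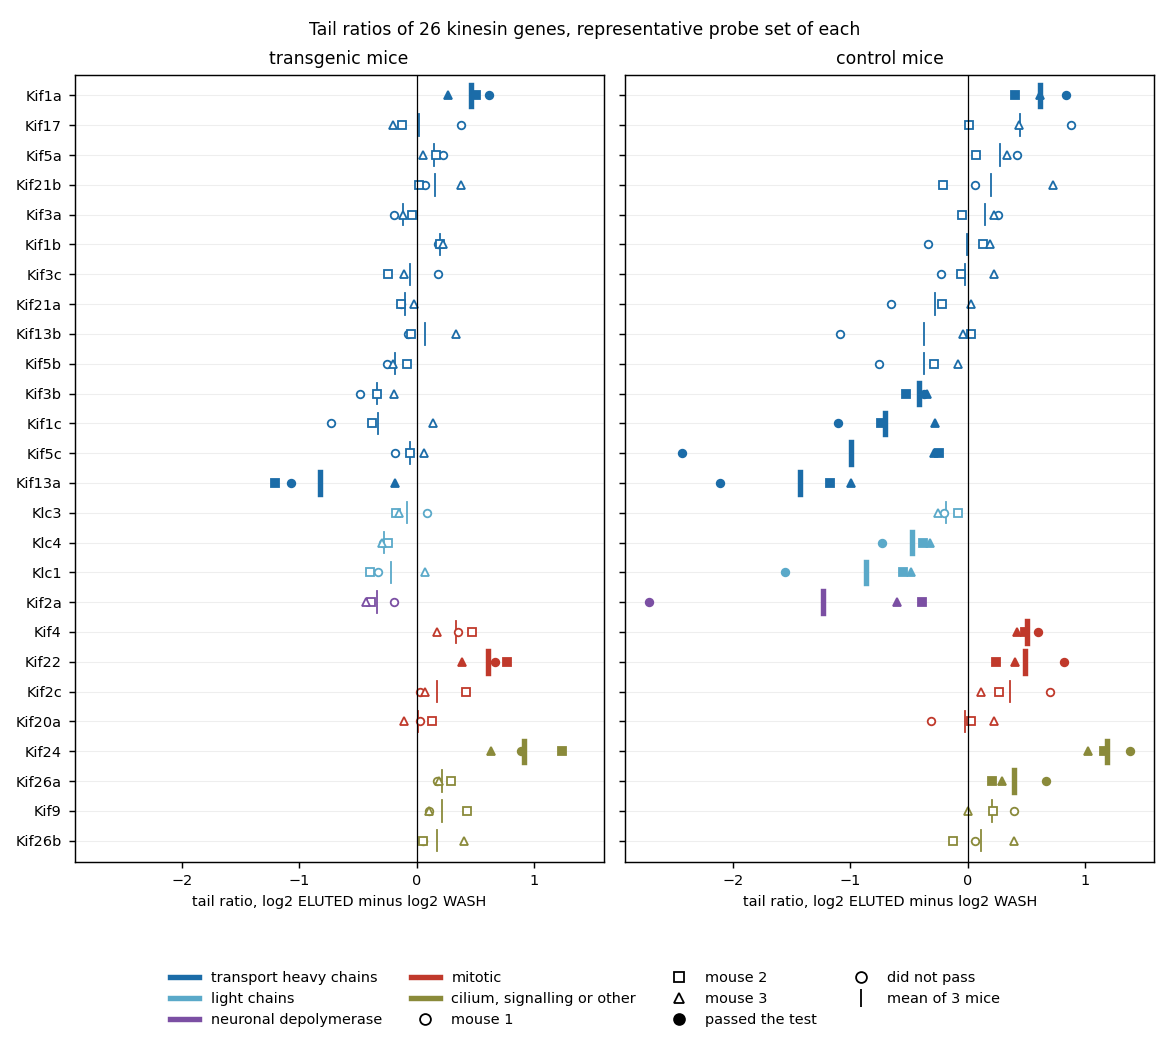
Tail ratio (log2 ELUTED minus log2 WASH) of the representative probe set of each of 26 kinesin genes, transgenic mice on the left and control mice on the right; each symbol is 1 mouse, the bar is the mean of 3 mice, filled symbols passed the test and colours mark roles. Kif1a and Kif24 lie right of 0 in all 6 mice, Kif13a lies left of 0 in all 6, and control mouse 1 is the far point for Kif5c and Kif2a.

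The 3 heavy chains of kinesin-1, the motor that carries mitochondria, vesicles and RNA granules along axons, are Kif5a, Kif5b and Kif5c, and their tail ratios are given in turn with no test between the genes. Kif5a is the neuronal heavy chain mutated in forms of spastic paraplegia. Its representative probe set had tail ratios of 0.23, 0.17 and 0.058 in transgenic mice, against 0.42, 0.071 and 0.33 in control mice, all positive, and did not pass in either genotype. 1427635_PM_at, another probe set of Kif5a, had 0.32, 0.68 and 0.31 in transgenic mice, against 0.66, 0.23 and 0.83 in control mice. All 6 values were again positive, and the control mean of 0.58 (SE 0.15, adjusted p = 0.0124) passed. The third, 1450249_PM_s_at, passed in control mice at 0.37 (SE 0.14, adjusted p = 0.0444) and read 0.24 (adjusted p = 0.196) without control mouse 1. Neither call was kept without control mouse 3, at 0.45 (adjusted p = 0.0846) for 1427635_PM_at and 0.35 (adjusted p = 0.143) for 1450249_PM_s_at. None of the 3 Kif5a probe sets passed in transgenic mice.

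Kif5b is the heavy chain made in most cell types. Its representative probe set stood at 10.88, 10.67 and 10.73 in ELUTED and 11.14, 10.75 and 10.94 in WASH of transgenic mice, and at 10.13, 10.67 and 10.66 in ELUTED and 10.88, 10.96 and 10.74 in WASH of control mice. Tail ratios were therefore negative in all 6 mice, but small, and the mean did not pass in transgenic mice, -0.18 (SE 0.15, adjusted p = 0.368), or in control mice, -0.37 (SE 0.15, adjusted p = 0.057). Another of its probe sets, 1418429_PM_at, had tail ratios of -1.44, -1.42 and -0.76 in transgenic mice, against -1.39, -0.73 and -0.95 in control mice. All 6 were negative, at a mean of -1.21 (SE 0.18, adjusted p = 0.00525) in transgenic and -1.02 (SE 0.18, adjusted p = 0.00233) in control mice. Both means passed. The probe set cleared the filter through WASH, where it averaged 6.66, while its means of 5.54 in ELUTED and 5.85 in INPUT were under the filter value, so its passing is a description and supports nothing. It was detected on 6 of 6 WASH arrays but on 2 of 6 ELUTED arrays. 1418428_PM_at passed in control mice at -1.94 (SE 0.45, adjusted p = 0.00654), with values of -3.61, -1.03 and -1.19, and at -1.11 (adjusted p = 0.00152) without control mouse 1. In ELUTED of control mice it averaged 6.12 and was detected on 2 of 3 arrays, so the size of this ratio is uncertain. In transgenic mice the same probe set had -1.32, -1.51 and -0.54 and did not pass, adjusted p = 0.086. Over all 5 Kif5b probe sets the mean tail ratio was negative in both genotypes, from -1.21 to -0.18 in transgenic and from -1.94 to -0.33 in control mice.

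Kif5c, the third, neuronal heavy chain, rested on 1 array. Its representative probe set read 11.61, 11.78 and 11.83 in ELUTED of transgenic mice, against 9.50, 11.87 and 11.63 in ELUTED of control mice. In WASH it read 11.79, 11.83 and 11.76 in transgenic mice, against 11.93, 12.11 and 11.91 in control mice, and in INPUT 11.79, 11.86 and 11.83 in transgenic mice, against 11.97, 11.88 and 11.82 in control mice. Only the ELUTED array of control mouse 1 was low, and the 5 other ELUTED values lay between 11.61 and 11.87. The control tail ratio of -0.99 (SE 0.37, adjusted p = 0.0456) became -0.27 (adjusted p = 0.141) without that mouse, and the transgenic one was -0.056 (SE 0.37, adjusted p = 0.916). The other Kif5c probe sets had control means of 0.11 and 0.44, and neither passed.

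**Figure D3:**
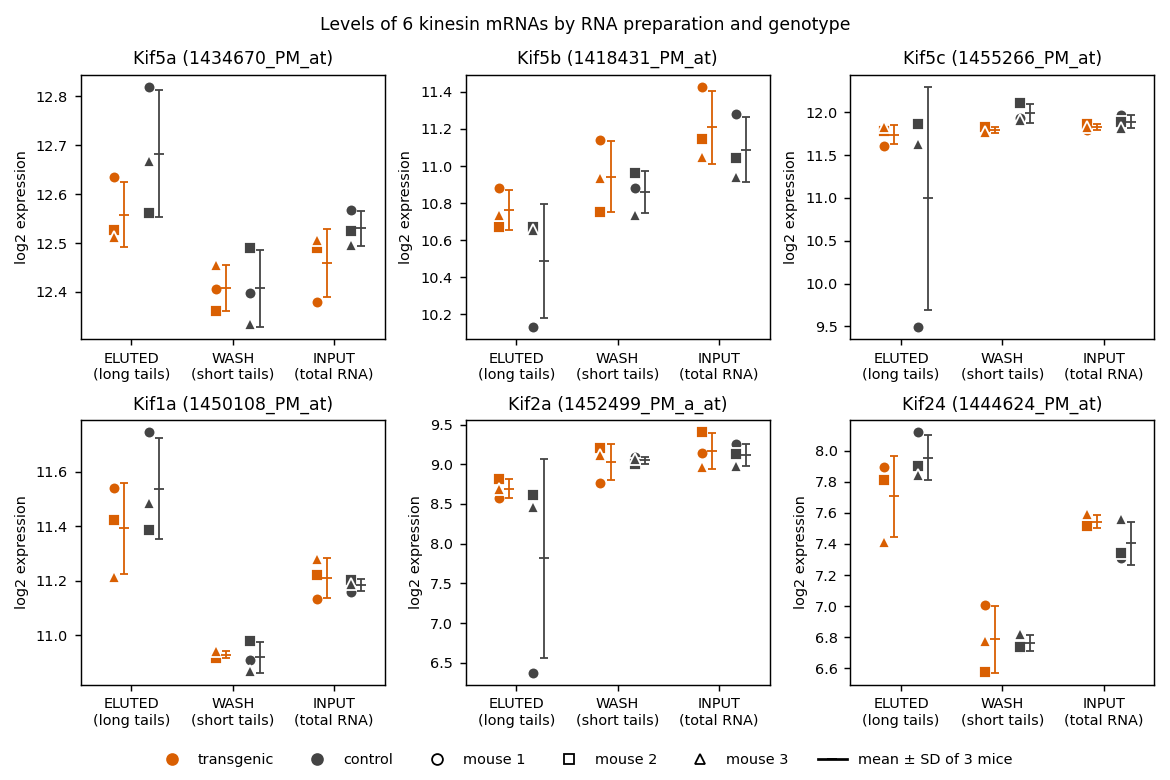
Log2 expression of 6 kinesin mRNAs (representative probe sets) in ELUTED, WASH and INPUT, transgenic mice (orange) left of control mice (grey) in each preparation; symbols are mice and bars show the mean ± SD of 3 mice, on an axis fitted to each gene. Kif1a and Kif24 are higher in ELUTED than in WASH in all 6 mice, Kif5b is lower in ELUTED, and the Kif5c and Kif2a values of control mouse 1 drop in ELUTED alone.

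Among kinesin-3 motors, Kif1a lay toward long tails in both genotypes. This motor carries synaptic vesicle precursors and dense-core vesicles down the axon. Its representative probe set stood at 11.54, 11.42 and 11.21 in ELUTED and 10.93, 10.92 and 10.94 in WASH of transgenic mice, and at 11.74, 11.39 and 11.49 and 10.91, 10.98 and 10.87 in the same fractions of control mice. Every ELUTED value exceeded every WASH value. The tail ratio passed in transgenic mice at 0.46 (SE 0.14, adjusted p = 0.0356), a share 1.38 times as large in the long-tail as in the short-tail fraction, and in control mice at 0.62 (SE 0.14, adjusted p = 0.00559), 1.54 times. The transgenic call was lost with any 1 of the transgenic mice left out and without control mouse 3. It was also lost with the mean of the gene's probe sets, at 0.34 (adjusted p = 0.124). INPUT levels were 11.13, 11.22 and 11.28 in transgenic mice, against 11.16, 11.20 and 11.19 in control mice, with overlapping groups. The second Kif1a probe set, 1421053_PM_at, had tail ratios of 0.51, 0.13 and 0.013 in transgenic mice, against 1.41, 0.35 and 0.99 in control mice. It was positive in all 6 mice and passed in control mice at 0.92 (SE 0.20, adjusted p = 0.00537) but not in transgenic mice, 0.22 (SE 0.20, adjusted p = 0.411). Without control mouse 1 its control mean was 0.67 (adjusted p = 0.0118). The difference between the genotypes did not pass (adjusted p = 0.371).

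Kif1b, which transports synaptic vesicle precursors and mitochondria depending on its isoform, had 5 tested probe sets that did not behave alike. 1451762_PM_a_at had tail ratios of 0.61, 0.50 and 0.29 in transgenic mice, against 0.96, 0.67 and 1.10 in control mice. All 6 were positive, and the probe set passed at 0.47 (SE 0.14, adjusted p = 0.0341) in transgenic and 0.91 (SE 0.14, adjusted p = 0.0012) in control mice. The representative probe set had 0.18, 0.20 and 0.23 in transgenic mice, against -0.33, 0.13 and 0.19 in control mice. It was slightly positive in 5 mice and negative in control mouse 1, and did not pass. The other 3 probe sets had means between -0.07 and 0.20 in transgenic and between -0.36 and 0.33 in control mice, and none passed.

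Kif13a, an endosomal motor of the same family, had the lowest tail ratio of the representative probe sets in both genotypes. It read 6.32, 6.16 and 6.85 in ELUTED and 7.39, 7.37 and 7.04 in WASH of transgenic mice, and 5.08, 6.10 and 6.05 and 7.20, 7.27 and 7.04 in control mice. The tail ratios of -1.07, -1.21 and -0.19 in transgenic mice, against -2.11, -1.17 and -0.995 in control mice were all negative, with transgenic mouse 3 nearest to 0. The probe set was detected on 6 of 6 WASH arrays and on 3 of 6 ELUTED arrays, 2 of them from transgenic mice. The mean passed in transgenic mice at -0.82 (SE 0.26, adjusted p = 0.042) and in control mice at -1.43 (SE 0.26, adjusted p = 0.00235), where it was -1.08 (adjusted p = 0.0022) without mouse 1. The transgenic call was lost without transgenic mouse 1 or 2 and without control mouse 3. It was also lost with no filter, with the arrays quantile-normalized again and with centring on the median. A second Kif13a probe set, 1451890_PM_at, had means of -0.096 in transgenic and 0.072 in control mice and passed in neither. Kif1c, a motor of dense-core vesicles and mRNA, had tail ratios of -0.73, -0.38 and 0.14 in transgenic mice, against -1.10, -0.74 and -0.28 in control mice. The control mean of -0.71 (SE 0.20, adjusted p = 0.0165) passed with all 3 mice and read -0.51 (adjusted p = 0.0554) without mouse 1. Of the 2 Kif13b probe sets, the representative one did not pass, and 1453276_PM_at passed toward long tails in control mice at 0.50 (SE 0.17, adjusted p = 0.0284), but not without control mouse 3, at 0.36 (adjusted p = 0.169).

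Among kinesin-2 motors, Kif3a, Kif3b and Kif3c were mostly near 0 or toward short tails. Kif3a and Kif3b form the heterodimer that builds cilia and also carries cargo in axons. Kif3b had tail ratios of -0.49, -0.34 and -0.19 in transgenic mice, against -0.37, -0.52 and -0.35 in control mice, negative in all 6 mice, and passed in control mice at -0.41 (SE 0.12, adjusted p = 0.0183) but not in transgenic mice, -0.34 (SE 0.12, adjusted p = 0.0656). The control call was lost without control mouse 2, at -0.36 (adjusted p = 0.0667), without control mouse 3, at -0.45 (adjusted p = 0.056), and with the arrays quantile-normalized again, the control spread alone or the mean of the gene's probe sets, with adjusted p up to 0.771. 1450074_PM_at, another Kif3b probe set, had -0.58, -0.87 and -0.78 in transgenic mice, against -1.40, -0.92 and -0.80 in control mice. All values were at or below -0.58, and it passed in both genotypes, at -0.74 (SE 0.15, adjusted p = 0.0108) in transgenic and -1.04 (SE 0.15, adjusted p = 0.00105) in control mice. The other 2 Kif3b probe sets did not pass. For Kif3a the representative probe set had -0.19, -0.036 and -0.12 in transgenic mice, against 0.26, -0.044 and 0.23 in control mice. It was below 0 in all transgenic mice and above 0 in 2 of 3 control mice, and passed in neither genotype. Of the 3 other Kif3a probe sets, 1455652_PM_at and 1436560_PM_at passed toward short tails in control mice, at -0.74 (SE 0.27, adjusted p = 0.0408) and -0.41 (SE 0.14, adjusted p = 0.0369). Neither passed without control mouse 1, at -0.24 (adjusted p = 0.175) and -0.30 (adjusted p = 0.138). Kif3c, a neuronal partner of Kif3a, did not pass, with means of -0.058 in transgenic and -0.022 in control mice.

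Kif17, a dendritic kinesin-2 motor that carries NMDA receptor subunits, leaned toward long tails in control mice. Its representative probe set had tail ratios of 0.38, -0.13 and -0.20 in transgenic mice, against 0.89, 0.014 and 0.44 in control mice. Signs were mixed in transgenic mice and positive in all control mice, and the probe set passed in neither genotype. 1419826_PM_at had 0.25, 0.18 and 0.13 in transgenic mice, against 0.66, 0.35 and 0.70 in control mice, positive in all 6 mice, with transgenic values all below control values. It passed in control mice at 0.57 (SE 0.13, adjusted p = 0.00559), but the genotype difference of -0.38 (SE 0.18, adjusted p = 0.381) did not pass.

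The kinesin-4 motors Kif21a and Kif21b, which restrain microtubule growth and move in axons and dendrites, differed in how many probe sets could be read, 3 for Kif21a and 1 for Kif21b. The 3 of Kif21a disagreed. 1455029_PM_at had tail ratios of -1.43, -1.59 and -0.35 in transgenic mice, against -2.48, -1.58 and -1.88 in control mice. It lay toward short tails in all 6 mice and passed at -1.12 (SE 0.26, adjusted p = 0.0159) in transgenic and -1.98 (SE 0.26, adjusted p = 0.000766) in control mice. On the ELUTED array of control mouse 1 it read 5.55, below the nonspecific control at 7.30, and the control mean was -1.73 (adjusted p = 0.000373) without that mouse. 1447236_PM_at of the same gene had 0.27, 0.46 and -0.023 in transgenic mice, against 0.85, 0.55 and 0.51 in control mice. It passed toward long tails in control mice, 0.64 (SE 0.14, adjusted p = 0.00568). The representative probe set of Kif21a stood between them, at -0.097 in transgenic and -0.28 in control mice, and did not pass. Kif21b had 1 probe set, with tail ratios of 0.075, 0.02 and 0.38 in transgenic mice, against 0.068, -0.21 and 0.73 in control mice, and did not pass.

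Kinesin light chains bind cargo adaptors and regulate the kinesin-1 heavy chains. Klc1, the main neuronal light chain, had tail ratios of -0.33, -0.39 and 0.074 in transgenic mice, against -1.56, -0.55 and -0.48 in control mice on its representative probe set. All control mice and 2 of 3 transgenic mice were negative, and the groups did not overlap. The control mean passed at -0.86 (SE 0.22, adjusted p = 0.00935) and was -0.51 (adjusted p = 0.0197) without control mouse 1, while the transgenic mean was -0.22 (SE 0.22, adjusted p = 0.449). A second Klc1 probe set passed toward short tails in control mice, 1448541_PM_at at -0.38 (SE 0.13, adjusted p = 0.0361), and read -0.36 (adjusted p = 0.0773) without control mouse 1, and the third did not pass. Klc4 had -0.28, -0.25 and -0.29 in transgenic mice, against -0.73, -0.38 and -0.32 in control mice on its representative probe set, all negative, and passed in control mice at -0.48 (SE 0.13, adjusted p = 0.0129). Its other probe set, 1425547_PM_a_at, had 0.58, 0.38 and 0.045 in transgenic mice, against 0.87, 0.18 and 0.38 in control mice, all positive, and passed in control mice at 0.48 (SE 0.17, adjusted p = 0.0366). Both Klc4 calls were lost without control mouse 1, at -0.35 (adjusted p = 0.0566) and 0.28 (adjusted p = 0.172). Klc3 did not pass in either genotype.

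Kif2a does not walk but takes microtubule ends apart, and in neurons it limits the growth of axon branches. Its 5 probe sets ranged from strongly negative to strongly positive. The representative probe set had tail ratios of -0.20, -0.39 and -0.43 in transgenic mice, against -2.71, -0.39 and -0.61 in control mice. All 6 were negative, but control mouse 1 lay far below the rest, and the control mean of -1.24 (SE 0.38, adjusted p = 0.0218) was -0.50 (adjusted p = 0.0166) without it. This control call was lost with the arrays quantile-normalized again and with the control spread alone, with adjusted p up to 0.0778. 1450053_PM_at had -1.39, -1.25 and -0.51 in transgenic mice, against -2.52, -1.18 and -1.58 in control mice, again all negative, and passed at -1.05 (SE 0.26, adjusted p = 0.0207) in transgenic and -1.76 (SE 0.26, adjusted p = 0.00115) in control mice. Its control mean was -1.38 (adjusted p = 0.000462) without control mouse 1. 1450052_PM_at passed in the same direction in both genotypes, at -0.64 (SE 0.18, adjusted p = 0.0317) in transgenic and -1.07 (SE 0.18, adjusted p = 0.00194) in control mice, with a transgenic mean of -0.42 without transgenic mouse 2. The transgenic calls of 1450053_PM_at and 1450052_PM_at were lost without transgenic mouse 1 or 2 and with the arrays quantile-normalized again. That of 1450052_PM_at was also lost with centring on the median and without control mouse 3. 1432072_PM_at ran opposite to these probe sets, with 1.22, 0.44 and -0.021 in transgenic mice, against 2.22, 0.64 and 0.94 in control mice. It was positive in 5 of 6 mice and passed in control mice at 1.27 (SE 0.32, adjusted p = 0.00909), or 0.79 (adjusted p = 0.0172) without control mouse 1.

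Probe sets of the same gene that passed in opposite directions were thus found in Kif21a, Kif2a and Klc4 in control mice. They were 3 of the 14 kinesin genes with several tested probe sets, 21.4%, where 464 of 4622 such genes, 10%, did so over the whole array. In transgenic mice the counts were 0 of 14 and 96 of 4622, 2.08%. The median distance between the highest and lowest probe set of a gene was 0.46 in transgenic and 1.11 in control mice for kinesins, and 0.35 in transgenic and 0.63 in control mice for all genes. A gene with more tested probe sets has more room for opposite calls and for a wide range. The number of probe sets per gene was not matched, and these shares and distances were not compared by a test. Both Klc4 calls were lost without control mouse 1, as given above. Different probe sets of a gene read different stretches of its transcripts. For Kif21a, Kif2a and Klc4 the sign of a passing tail ratio in control mice depended on the probe set read. Control means of Kif1b, Kif3a, Kif3b, Kif5c, Kif13a and Kif13b also lay on both sides of 0, without calls in both directions.

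**Figure D4:**
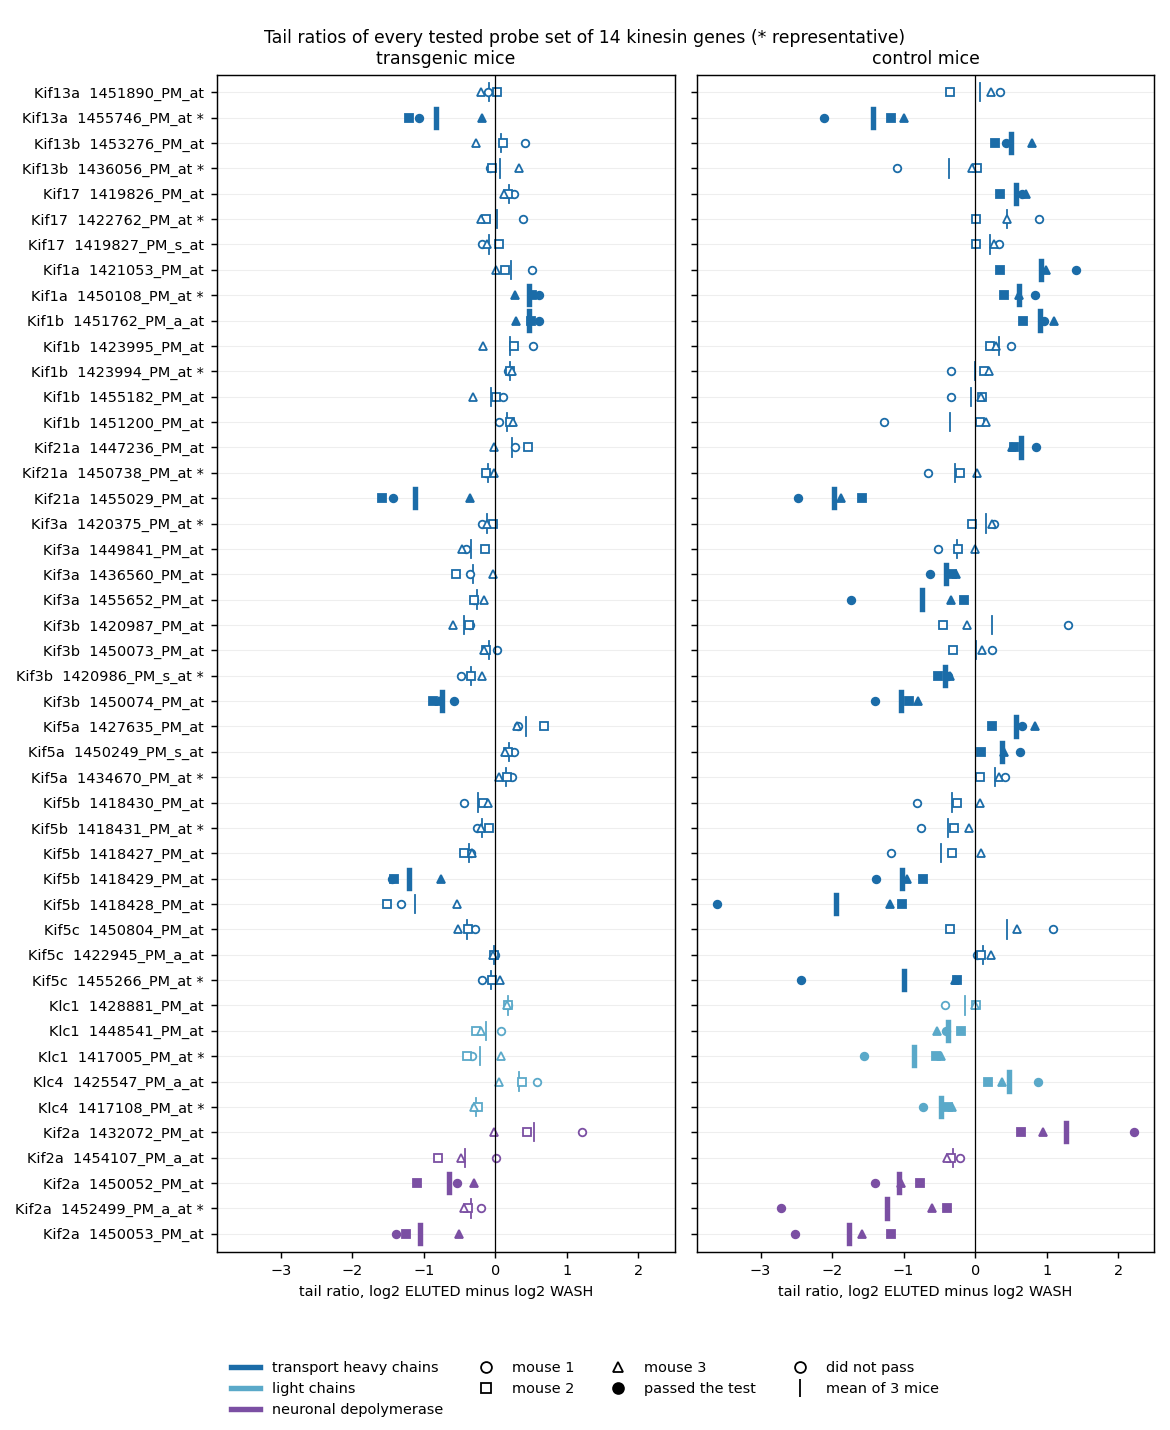
Tail ratio of every tested probe set of the 14 kinesin genes with more than one, transgenic mice on the left and control mice on the right; symbols are mice, bars are means of 3 mice, filled symbols passed and asterisks mark representative probe sets. Probe sets of Kif21a, Kif2a and Klc4 passed on both sides of 0 in control mice, whereas all 5 of Kif5b have a mean left of 0.

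The few mitotic motors that could be tested lay toward long tails or near 0. Kif22, a chromosome-binding motor, had tail ratios of 0.67, 0.77 and 0.39 in transgenic mice, against 0.82, 0.24 and 0.40 in control mice. It was positive in all 6 mice and passed at 0.61 (SE 0.15, adjusted p = 0.0203) in transgenic and 0.49 (SE 0.15, adjusted p = 0.0217) in control mice, or 0.32 (adjusted p = 0.0975) without control mouse 1. A second Kif22 probe set, 1451128_PM_s_at, averaged 5.31, was detected on 1 of 18 arrays and was not tested. Kif4, a motor of the mitotic midzone that is also present in young neurons, had 0.35, 0.47 and 0.18 in transgenic mice, against 0.60, 0.49 and 0.42 in control mice. All were positive, and it passed in control mice, 0.51 (SE 0.12, adjusted p = 0.00808), but not in transgenic mice, 0.33 (SE 0.12, adjusted p = 0.0688). Its mean was 6.24 in ELUTED, 5.81 in WASH, which is under the filter value, and 5.98 in INPUT, so its passing is a description and supports nothing. It was detected on no INPUT array. Kif2c and Kif20a, motors of the kinetochore and of cytokinesis, did not pass. With 2 of 4 tested probe sets passing in control mice and 12 mitotic genes in all, the group rests on few and dim members.

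Of the motors of cilia, signalling or other roles, Kif24 had the highest tail ratio of the representative probe sets in both genotypes. It is known for its part in keeping primary cilia disassembled. It read 7.89, 7.81 and 7.41 in ELUTED and 7.01, 6.58 and 6.78 in WASH of transgenic mice, and 8.12, 7.90 and 7.85 and 6.73, 6.74 and 6.82 in control mice. ELUTED exceeded WASH in every mouse, with no overlap. The tail ratio was 0.92 (SE 0.15, adjusted p = 0.00603) in transgenic and 1.19 (SE 0.15, adjusted p = 0.000714) in control mice, 1.89 and 2.28 times as large a share in the long-tail fraction. Kif24 was detected on 2 of 3 INPUT arrays of transgenic and 3 of 3 of control mice. These values rest on 1 of its 3 probe sets. The others, 1431937_PM_at and 1453947_PM_at, averaged 5.30 and 4.03, were detected on 0 of 18 arrays and were not tested. Kif26a, a motor-like regulator without ATPase activity, had 0.18, 0.29 and 0.19 in transgenic mice, against 0.67, 0.21 and 0.30 in control mice. All were positive, and it passed in control mice at 0.39 (SE 0.13, adjusted p = 0.0312), or 0.25 (adjusted p = 0.152) without control mouse 1. Kif9 and Kif26b did not pass.

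Set by role, the members that passed in transgenic mice were 2 toward long and 4 toward short tails among 39 heavy-chain probe sets, 0 of 6 for light chains, 2 toward short tails among 5 for Kif2a, 1 of 4 mitotic toward long tails, and 1 of 4 in the last group, also toward long tails. In control mice they were 8 toward long and 10 toward short tails among the 39 for heavy chains, 1 and 3 of 6 for light chains, 1 and 3 of 5 for Kif2a, 2 and 0 of 4 for mitotic motors and 2 and 0 of 4 for the last group. Over the whole array, 12.7% of probe sets passed toward long and 19.1% toward short tails in transgenic mice, and 27.6% and 35.4% in control mice. The differences between roles were not tested.

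The genotypes were compared to ask whether the transgene was accompanied by a shift of kinesin mRNA level or of its tail ratio. No kinesin probe set passed in any of the 4 comparisons, and neither did any other of the 27022 probe sets, so percent called was 0 in ELUTED, WASH, INPUT and the tail ratio. At an unadjusted p under 0.05 there were 6 kinesin probe sets of 58 in ELUTED, 2 in WASH, 3 in INPUT and 3 for the tail ratio, beside 16.5%, 16.5%, 10.9% and 13.4% of all probe sets. The median difference of kinesin probe sets was -0.01 in ELUTED, -0.0066 in WASH, 0.016 in INPUT and -0.02 for the tail ratio. The 3 transgenic mice lay wholly above or below the 3 control mice in 12 of 58 kinesin probe sets in ELUTED, against 24.5% of all probe sets. The counts were 8 of 58 in WASH against 24.6%, 6 of 58 in INPUT against 18.4% and 8 of 58 for the tail ratio against 18.2%. Kinesin shares ran from 10.3% to 20.7%, and their distance from the whole-array shares was not tested. The 58 probe sets stand for 26 genes and the 4 comparisons use the same 6 mice, so these shares are not independent of each other.

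Among representative probe sets, Kif13a and Klc1 had the smallest p-values in INPUT. Kif13a read 6.55, 6.45 and 6.61 in transgenic mice, against 6.27, 6.10 and 6.04 in control mice. The groups did not overlap, and the difference was 0.40 (SE 0.11, adjusted p = 0.423). Klc1 read 10.76, 10.73 and 10.60 in transgenic mice, against 10.43, 10.52 and 10.38 in control mice, also without overlap, with a difference of 0.25 (SE 0.10, adjusted p = 0.45). Kif1c was next, with 7.18, 6.74 and 6.28 in transgenic mice, against 6.68, 6.24 and 6.21 in control mice. These groups overlapped, and the difference was 0.35 (SE 0.23, adjusted p = 0.559). Kif13a and Kif1c were detected on 0 of 6 INPUT arrays, so their INPUT differences lie below the nonspecific control. The same 3 genes led in ELUTED. Klc1 stood at 10.57, 10.59 and 10.96 in transgenic mice, against 9.35, 10.23 and 10.36 in control mice there, with every transgenic value above every control value and a difference of 0.72 (SE 0.29, adjusted p = 0.292). Kif13a stood at 6.32, 6.16 and 6.85 in transgenic mice, against 5.08, 6.10 and 6.05 in control mice, a difference of 0.70 (SE 0.32, adjusted p = 0.31), and Kif1c at 6.91, 6.70 and 6.81 in transgenic mice, against 5.72, 6.64 and 6.58 in control mice, a difference of 0.49 (SE 0.26, adjusted p = 0.347). Neither pair of groups overlapped. Without control mouse 1, whose ELUTED values were the lowest for all 3 genes, the differences were 0.41 for Klc1 (adjusted p = 0.474), 0.37 for Kif13a (adjusted p = 0.566) and 0.20 for Kif1c (adjusted p = 0.683).

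In WASH, Kif22 had the smallest p-value, with 6.51, 6.67 and 6.74 in transgenic mice, against 6.998, 7.01 and 7.25 in control mice. Transgenic values were all lower, and the difference was -0.44 (SE 0.11, adjusted p = 0.178). Kif3b followed with 8.38, 8.61 and 8.50 in transgenic mice, against 8.64, 8.72 and 8.71 in control mice, a difference of -0.19 (SE 0.095, adjusted p = 0.343). Kif5c, whose WASH values are given above, differed by -0.19 (SE 0.093, adjusted p = 0.345). Both were lower in all 3 transgenic than in all 3 control mice. For the tail ratio the smallest p-values belonged to Klc1, at 0.64 (SE 0.31, adjusted p = 0.383), Kif5c, at 0.93 (SE 0.53, adjusted p = 0.429), and Kif2a, at 0.90 (SE 0.54, adjusted p = 0.449). Without control mouse 1, whose ELUTED value was low for all 3, the differences were 0.30 for Klc1 (adjusted p = 0.721), 0.21 for Kif5c (adjusted p = 0.803) and 0.16 for Kif2a (adjusted p = 0.872). With control mouse 2 left out instead, 1 kinesin probe set passed in ELUTED, where 8.58% of all probe sets did, and 2 passed for the tail ratio, where 9.2% did. These were 1450804_PM_at of Kif5c, lower in transgenic mice with a difference of -1.15 in ELUTED (adjusted p = 0.0228) and of -1.23 for the tail ratio (adjusted p = 0.0184), and 1421053_PM_at of Kif1a, with a difference of -0.98 for the tail ratio (adjusted p = 0.0427). With all 6 mice their tail ratio differences were -0.84 (SE 0.34, adjusted p = 0.371) and -0.70 (SE 0.28, adjusted p = 0.371).

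**Figure D5:**
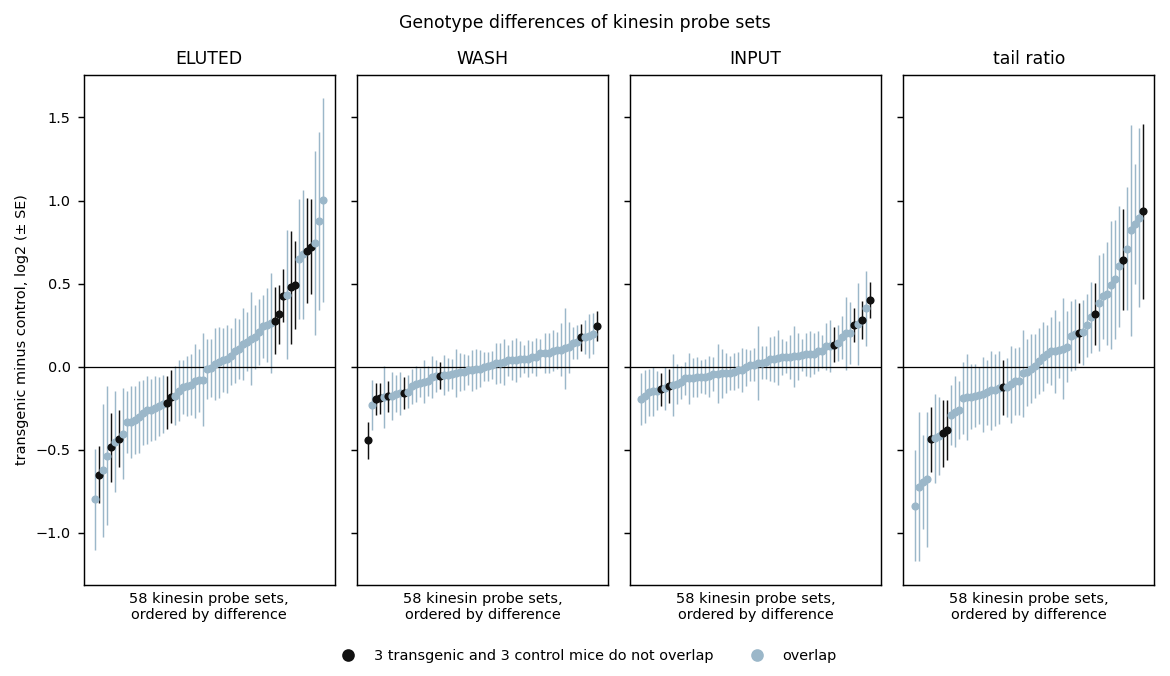
Genotype difference (transgenic minus control, log2, ± SE) of the 58 tested kinesin probe sets in ELUTED, WASH, INPUT and for the tail ratio, ordered by size in each panel; black points mark probe sets whose 3 transgenic and 3 control mice do not overlap. None passed, and the black points number 12, 8, 6 and 8 of 58.

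Other components of microtubule transport were taken as lists, counted by representative probe set. Their calls are given with all 6 mice only. Without transgenic mouse 1 or 2, 0 of the 27022 probe sets passed in transgenic mice, so no transgenic call below is kept then. Without control mouse 1, 52.2% of all probe sets passed in control mice, against 63% with it. Dynein, the motor that runs toward the cell body, and its cofactor dynactin had 22 genes tested. In transgenic mice 4 of the 22 passed, all toward short tails, where 20.5% of all genes did. In control mice 16 of 22 genes passed toward short and 2 toward long tails, with a median of -0.68, where 39.9% and 20.5% of all genes passed in those directions. The lowest in control mice were Dctn3, a dynactin subunit, at -2.38 (adjusted p = 0.00128) and the dynein light chain Dynlt3 at -1.51 (adjusted p = 0.00322), and the highest were the light chain Dynll2 at 1.20 (adjusted p = 0.00163) and the dynein regulator Pafah1b1 at 0.65 (adjusted p = 0.0157). Cargo adaptors passed toward short tails for 3 of 13 genes in transgenic and 5 of 13 in control mice, and toward long tails for 0 of 13 in each. Spag9, a scaffold that links kinesin-1 to cargo, was at -1.05 in transgenic (adjusted p = 0.0227) and -1.60 in control mice (adjusted p = 0.00176). Rhot1, the mitochondrial anchor Miro1, was at -0.62 in transgenic (adjusted p = 0.0486) and -1.54 in control mice (adjusted p = 0.000814). The highest adaptors, Grip1 at 0.31 and Plekhm2 at 0.16 in control mice, did not pass.

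Of 5 genes for kinesin-14 motors and kinesin partners, none passed in transgenic mice and 2 passed toward short tails in control mice. They were Kifap3, the adaptor of the Kif3a and Kif3b motor, at -1.66 (adjusted p = 0.00264) and Kifbp, which inhibits several kinesins, at -1.55 (adjusted p = 0.00152). Over all genes, 20.5% passed toward short and 6.5% toward long tails in transgenic mice, and 39.9% and 20.5% in control mice. The highest were Cenpe, a spindle motor outside the naming rule, at 0.40 and Kifc2 at -0.05, which did not pass. Of 7 tubulin genes, none passed in transgenic mice, and 5 passed toward short and 1 toward long tails in control mice. Tubb4b at -0.95 (adjusted p = 0.00332) and Tubb3 at -0.89 (adjusted p = 0.00803) were lowest in control mice, and Tubb4a at 0.46 (adjusted p = 0.0151) and Tuba1a at -0.11, which did not pass, were highest. Of 13 microtubule-associated proteins, none passed in transgenic mice, and 5 passed toward short and 4 toward long tails in control mice. The stathmins Stmn3 at -1.15 (adjusted p = 0.00192) and Stmn2 at -0.99 (adjusted p = 0.00771) were lowest, and Map1a at 0.76 (adjusted p = 0.00782) and Mapt, which encodes tau, at 0.65 (adjusted p = 0.0112) were highest.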

How the data were processed

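Cortex and striatum of 3 TgCPEB4∆4 and 3 control mice were profiled on 18 single-colour arrays. Per the labels' protocols, 5 ng of RNA was amplified over 21 cycles, then 8 µg of cDNA was fragmented and labelled, so values give a transcript's share of a preparation and not its amount. The deposited log2 values were made with RMA, per the submitters' processing notes; the sources used here state neither its version nor its runs. RMA makes array distributions more alike, which can hide shifts shared by most transcripts. The deposited distributions still differed, with an SD of 1.70 on the ELUTED array of control mouse 1 and 2.00 on the WASH array of transgenic mouse 2. There is no read depth on arrays, and precision is limited by the number of arrays. Nothing beyond the mouse numbers says how independent the mice are, so p-values measure the spread between these samples.

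Of 45141 probe sets, 104 controls were left out, and the probe annotation gave 1 gene for 28898. Symbols were checked against RefSeq genes of assembly GRCm38.p6, which changed none, and 40 of 40 kinesin symbols were found there. limma 3.58.1 in R 4.3.3 fitted ELUTED, WASH and INPUT between genotypes, and the tail ratio within mice, with the 6 mice sharing 1 estimate of spread. Means were tested against 0 and genotypes against each other, two-sided. The code was tested on simulated data. The labels assign both fractions to the same mouse, which pairs them. The deviations of ELUTED and WASH arrays of a mouse from their group means had correlations of 0.716, 0.333 and 0.427 in transgenic and of -0.066, 0.162 and -0.025 in control mice.

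The members, roles and lists were chosen with earlier results of these data known. Values per mouse are given by a rule that covers members passing a genotype comparison (there were none), the 5 highest and 5 lowest tail ratios among representative probe sets in each genotype, Kif1a, Kif1b, Kif3a, Kif5a, Kif5b, Kif5c, Kif17, Kif21b, Kif2a, Kif11, Klc1 and Klc2 (the last not analysed), and the 3 smallest p-values of each genotype comparison. Other probe sets of a gene are named where sign or call differed. Of the other lists, the 2 highest and 2 lowest in control mice are named. Alternatives were other filters, scalings, spreads and probe set rules, a replicate block and leaving out each mouse. In sums over markers, log2 values were turned to the linear scale, added and logged again. No sequence is printed.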

Additional observations from a re-analysis of the deposited data

Results flagged for a closer look

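The Kif5c probe set 1422945_PM_a_at had negative tail ratios in all 3 transgenic mice, at -0.0023, -0.013 and -0.036, and positive ones in all 3 control mice, at 0.031, 0.076 and 0.22. It was picked out because every transgenic mouse lay on one side of 0 and every control mouse on the other. The difference of -0.1258 (SE 0.16, adjusted p = 0.717 in limma) did not pass, and 1 of the 58 kinesin probe sets met this criterion.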

How the results depend on the processing

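In control mice, 16 of 30 kinesin calls passed under every alternative in which the probe set was tested. They included the representative probe sets of Kif1a, Kif13a and Kif24, and 1418428_PM_at of Kif5b, not its representative one. Probe sets of Kif2a and of Kif21a that pointed in opposite directions were also among them. The 16 count 1418429_PM_at of Kif5b and Kif4 as well, whose mean was under the filter value in 1 fraction. These 2 were not tested with the 60th percentile filter, and their passing supports nothing. Of the 10 calls in transgenic mice, 0 passed under every alternative, since leaving out transgenic mouse 1 or 2 ended all of them. With the 60th percentile filter, 5 probe sets passed between genotypes in WASH, 4612 of 18015 (25.6%) passed in transgenic mice and 6 of 43 kinesins did. Quantile normalization again gave 2 in WASH and 4986 in transgenic mice, and centring gave 2 in WASH. The transgenic spread alone gave 14521 probe sets (53.7%) and 22 of 58 kinesins in transgenic mice. The control spread alone gave 45.7% of all probe sets and 18 of 58 kinesins in control mice. Tail ratios rescaled to one spread gave 16523 (61.1%) and 24 of 58 in transgenic mice. Leaving out one mouse at a time gave 0 to 359 in WASH, 0 to 2319 in ELUTED with 0 to 1 kinesins, 0 to 2487 for the tail ratio difference with 0 to 2 kinesins, and 0 to 13560 in transgenic mice with 0 to 20 kinesins. Without transgenic mice 1 and 3 the WASH counts were 10 and 359. The causes were not tested.

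The split of calls moved with the scaling. Calls toward long tails were 40% of all calls in transgenic mice, 55.5% after quantile normalization again, 57.8% after centring and 31.2% with the stricter filter. In control mice they were 43.8%, 56.5% with no filter, 53.2% with arrays quantile-normalized again and 31.2% under the stricter filter. Quantile normalization again moved the median tail ratio of all probe sets by 0.12 in transgenic and 0.15 in control mice.

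Signs turned for 2 called values and for values near 0 that had not passed. With quantile normalization again, Klc1 1448541_PM_at read 0.036 in control mice, Kif1b 0.11 in control mice, Kif3a 0.12 and Kif5c 0.038 in transgenic mice. Centring gave Kif5c 0.048 in transgenic and Kif1b 0.053 in control mice, and rescaling gave Kif17 -0.027 in transgenic and Kif1b 0.038 in control mice. Averaging the probe sets of each gene gave Klc4 0.030 in transgenic and 0.0010 in control mice, and in control mice Kif3a -0.31 and Kif1b 0.17. The same choice gave a tail ratio difference of -0.0096 for Kif5c. Leaving out a mouse moved Kif17 between -0.17 and 0.13 and Kif5c between -0.12 and 0.0072 in transgenic mice, and Kif1b between -0.10 and 0.16 and Kif21b between -0.071 and 0.40 in control mice.

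Deviations of mice of different genotypes with the same number had correlations from -0.199 to 0.246 in ELUTED, -0.074 to 0.173 in WASH, -0.042 to 0.258 in INPUT and -0.313 to 0.357 for the tail ratio. For mice with different numbers they ran from -0.363 to 0.334 in ELUTED and -0.281 to 0.136 in WASH. They ran from -0.264 to 0.209 in INPUT and -0.563 to 0.504 for the tail ratio. With so few pairs, whether mice of one number share a batch was not tested. A fit with the replicate number as a block gave 0 calls in all 4 genotype comparisons. At an unadjusted p under 0.05 it gave 4954 probe sets in ELUTED, against 4454 without the block, and 4573 against 4466 in WASH. The counts were 3774 against 2935 in INPUT and 4432 against 3621 for the tail ratio. Without the pairing of fractions by mouse, 7789 probe sets (28.8%) and 11 of 58 kinesins passed in transgenic mice, and 16291 (60.3%) and 27 of 58 in control mice. Signal over background limits the mitotic and ciliary motors.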
